A study of Mus musculus with 12 samples.

Results

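Histone deacetylases Hdac1 and Hdac2 work inside multi-subunit complexes, and this account follows the transcripts of those subunits and of the acetyltransferases that oppose them in mouse embryonic hearts lacking Hdac2, Hopx or both. The group was a fixed list of 36 genes of the NuRD, Sin3, CoREST and NCoR complexes and of the acetyltransferases, each represented by its brightest probe set on average (mean log2 signal over the arrays). Of the 36, 34 had a probe set that names them alone, 30 were tested among the 9667 genes tested in all, and 4 (Chd3, Mbd3, Brms1 and Hmg20b) lay at or below a floor of 82.5 intensity units on all 12 arrays. Sap18 and Ncor1 were not analysed here, because the probe sets paired with Sap18 in the annotation used also name another gene, and none was paired with Ncor1. RNA came from whole ventricles at embryonic day 16.5 and was hybridised to Affymetrix arrays with 3 independent embryos in each of 4 groups: Hdac2-Hopx double-null, Hdac2-null, Hopx-null and wild type. The double-null embryos share the Hdac2 loss with the Hdac2-null group and the Hopx loss with the Hopx-null group, and the wild-type embryos carry neither. How the alleles were deleted, and any Cre driver, are not given in the sources used here.

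As background, Hdac1 and Hdac2 remove acetyl groups from histone tails and lack DNA-binding domains of their own. NuRD couples them to a chromatin remodeller and to methyl-CpG-binding proteins, Sin3 couples them to a large scaffold brought in by transcription factors, and CoREST pairs them with the histone demethylase Kdm1a. NCoR works mainly with Hdac3. The acetyltransferases Ep300, Crebbp, Kat2a, Kat2b and the MYST family (Kat5, Kat6a, Kat7 and Kat8) add the marks that these complexes take off. Hopx is a small homeodomain protein that does not bind DNA and is known to recruit deacetylase activity in the developing heart.

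The promoters of 4 members are printed because these had the lowest unadjusted p-values among the members in double-null against Hdac2-null ventricles, the comparison with the most members below an unadjusted p of 0.05. None of the 4 passed the test across all genes. Each line holds the 250 bases before the annotated start, 5′ to 3′ on the gene's own strand, from RefSeq on GRCm38.p6. Capitals mark letters searched for on either strand: GGGCGG of Sp1, CCGGAAG of ETS factors, CCAAT of NF-Y, TGCGCA of NRF1, the E-box CACGTG and the TATA letters TATAAA.
Rbbp7: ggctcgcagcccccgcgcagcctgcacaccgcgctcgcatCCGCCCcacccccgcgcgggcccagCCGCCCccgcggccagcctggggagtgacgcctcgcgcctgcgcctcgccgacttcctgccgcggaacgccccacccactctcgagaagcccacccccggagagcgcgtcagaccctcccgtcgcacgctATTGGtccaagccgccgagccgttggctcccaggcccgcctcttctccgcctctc
Kdm1a: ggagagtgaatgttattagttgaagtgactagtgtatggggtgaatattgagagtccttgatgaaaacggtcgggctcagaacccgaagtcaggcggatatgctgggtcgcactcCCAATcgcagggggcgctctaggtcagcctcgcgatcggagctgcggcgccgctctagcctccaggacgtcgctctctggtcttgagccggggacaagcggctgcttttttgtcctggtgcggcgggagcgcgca
Sin3b: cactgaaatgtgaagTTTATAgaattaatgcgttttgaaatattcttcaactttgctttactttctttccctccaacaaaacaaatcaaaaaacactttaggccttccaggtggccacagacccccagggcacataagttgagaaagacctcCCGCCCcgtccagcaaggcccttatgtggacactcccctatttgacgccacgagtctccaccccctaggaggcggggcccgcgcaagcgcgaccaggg
Sap30: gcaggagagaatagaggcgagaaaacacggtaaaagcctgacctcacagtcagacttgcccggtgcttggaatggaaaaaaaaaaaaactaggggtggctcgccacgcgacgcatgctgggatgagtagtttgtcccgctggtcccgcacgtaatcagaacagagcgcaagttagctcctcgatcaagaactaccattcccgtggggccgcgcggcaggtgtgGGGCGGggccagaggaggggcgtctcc
Rbbp7 lies at chrX:162760122-162760371 on the plus strand, Kdm1a at chr4:136602724-136602973 on the minus strand, Sin3b at chr8:72723020-72723269 on the plus strand and Sap30 at chr8:57487861-57488110 on the minus strand. The Rbbp7 window held GGGCGG at 2 places and CCAAT at 1, with a GC content of 76.4%. The Kdm1a window held CCAAT alone, the Sap30 window GGGCGG alone, and the Sin3b window both GGGCGG and TATAAA.

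RefSeq promoters were found for 25 of the 30 tested members, 34 windows in all because some genes have several starts. GGGCGG was in 26 of the 34 (76.5%), against 32.7% of all 32851 promoter windows of the same length. CCAAT was in 17 of the 34 (50%), against 33.8% of all. TATAAA was in 3 (8.82%, against 12.4%), CCGGAAG in 3 (8.82%, against 6.91%), TGCGCA in 2 (5.88%, against 6.43%) and CACGTG in 2 (5.88%, against 6.02%). The median GC content was 59.8% in members' promoters and 52.4% in all, and the observed over expected CpG ratio was above 0.6 in 27 of 34 (79.4%), against 34% of all. These are counts of letters in sequence, and GC content moves with them. The members' windows come from tested genes only, while the windows of all promoters were not limited to tested genes. The sets therefore differ in more than membership of these complexes. Whether members' promoters differ from those of other tested genes was not tested.

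The labels held for the deleted genes. Hdac2 signal was 4.06 to 4.32 on the double-null arrays and 4.04 to 4.05 on the Hdac2-null arrays, against 4442 to 5683 on Hopx-null arrays and 4604 to 5195 on wild-type arrays. Hopx signal was 1656 to 1728 on double-null and 1865 to 2066 on Hopx-null arrays, against 11680 to 12240 on Hdac2-null and 8577 to 12220 on wild-type arrays. The 12 arrays correlated at 0.9899 to 0.9978 (Pearson, log2 signal over genes, a description of the arrays). All 12 ventricular cardiomyocyte markers were above the floor on every array. Of 8 atrial markers 6 were above the floor on every array, with summed signals of 56610 to 70130 in double-null, 61250 to 66450 in Hdac2-null, 61750 to 70890 in Hopx-null and 65790 to 78230 in wild-type ventricles, and Bmp10 was at the floor everywhere. Of 8 leukocyte and macrophage markers 4 were above the floor on every array, with sums of 11440 to 13240 in double-null, 10550 to 13170 in Hdac2-null, 13870 to 15590 in Hopx-null and 12360 to 17500 in wild-type ventricles, while Ptprc, C1qa, Cd68 and Cx3cr1 were at the floor everywhere. Every double-null and every Hdac2-null leukocyte sum lay below every Hopx-null sum. The 8 fibroblast markers, all above the floor, summed to 71080 to 75810 in double-null, 69140 to 71470 in Hdac2-null, 71300 to 77130 in Hopx-null and 72690 to 75970 in wild-type ventricles, with every Hdac2-null array below every wild-type array. The summed signal of 8 endothelial markers was 14240 to 14670 in double-null, 15430 to 15630 in Hdac2-null, 14440 to 15830 in Hopx-null and 14440 to 16400 in wild-type ventricles. Every double-null endothelial sum lay below every Hdac2-null sum. The 5 liver markers with a probe set summed to 78.0 to 616.7 in Hdac2-null ventricles, against at most 142.4 on any array of the other genotypes. Of these, Apoa1 and Apoa2 were at or below the floor everywhere, and 0 were above it on every array. The 7 erythroid markers with a probe set summed to 205.7 to 254.9 in double-null, 565.8 to 1622 in Hdac2-null, 205.5 to 761.6 in Hopx-null and 243.6 to 484.1 in wild-type ventricles. Every Hdac2-null sum lay above every double-null and every wild-type sum. Of the erythroid markers, Hba-a1, Hbb-bh1, Hba-x and Gata1 were at or below the floor everywhere, and 0 were above it on every array. The liver and erythroid sums include signals under the floor. The part of these markers in the members' values was not tested. Xist was above the floor on 5 arrays, wild type 1 and 2 and replicate 1 of each null group, and below it on 7. In bulk tissue, fewer cells of a type and less RNA per cell cannot be told apart.

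For the members, arrays wild type 1 and Hopx-null 1 stood apart from the other 10. Their root mean square deviation from the gene mean over the 30 members was 0.186 and 0.222 on the log2 scale, against 0.0573 to 0.154 on the others. Over all genes the same measure was 0.280 and 0.241 on them, 0.268 on Hdac2-null 2 and 0.173 to 0.232 on the other 9 arrays, so over all genes Hdac2-null 2 deviated more than Hopx-null 1. Both lay outside the range of the other 10 arrays, on the same side, for 6 of 30 members (20%), as for 15.4% of all genes. Mta2 lay above that range, and Chd4, Gatad2a, Gatad2b, Arid4b and Kat7 lay below it. The Gapdh 3′ to 5′ log2 ratio, a sign of RNA quality, was 1.33 on wild type 1 and 0.842 to 1.07 on the other 11 arrays. The same ratio for actin did not set wild type 1 apart, at 2.756 against 2.635 to 2.795 on the other 11 arrays. Hopx-null 1 was inside the range of the other arrays on both, at 1.04 for Gapdh and 2.758 for actin. The part of RNA quality in these values was not tested. Values with full statistics that moved by over 1.5 times without both arrays are given with and without them. Both arrays were chosen after seeing the data, from the deviations of these same members. A member value that shrinks without them is therefore no independent check, and only shows how far it rests on them.

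**Figure D1:**
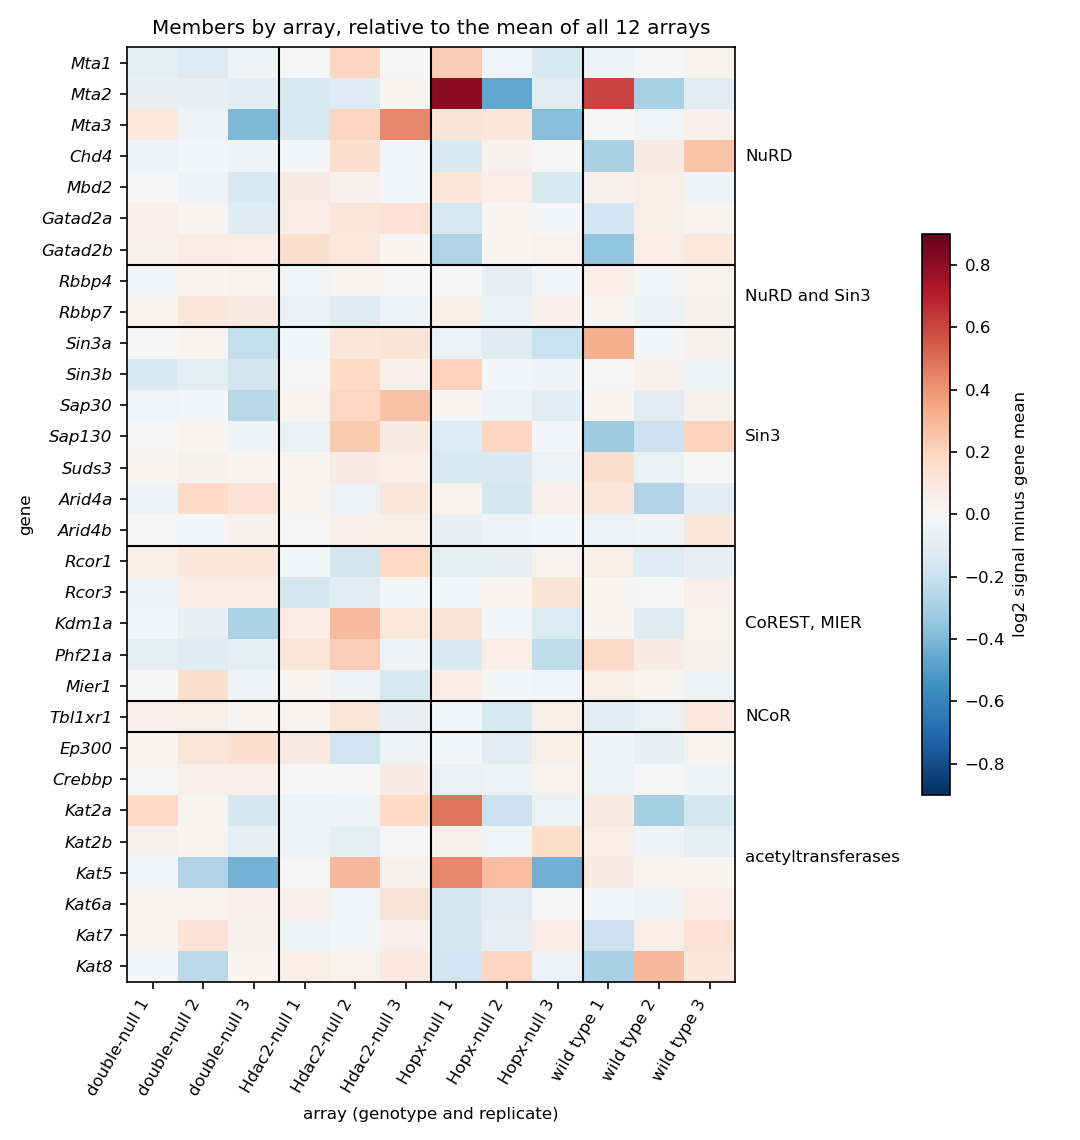
Log2 signal of the 30 tested members (rows, grouped by complex) on each of the 12 arrays (columns, 3 per genotype), minus the gene's mean over all arrays. Red is above the mean and blue below it. Mta2 on Hopx-null 1 and wild type 1 is the deepest red, and the Rbbp4 row is the palest, with a residual SD of 0.0302.

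No member changed in any of 7 comparisons at an adjusted p under 0.05 (limma with Benjamini-Hochberg adjustment over all 9667 genes). The counts without adjustment, and of members whose arrays do not overlap between genotypes, ran from 0 to 9 of 30. They are given beside the shares of all genes, and some lay above those shares and others below. In double-null against Hdac2-null ventricles both counts, 5 and 9 of 30, were above the shares of all genes, 11.3% and 25.6%.

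In double-null against wild-type ventricles, 0 of 30 members passed, as did 0.031% of all genes (3 of 9667). Below an unadjusted p of 0.05 was 1 member, Phf21a, against 7.31% of all genes. The arrays did not overlap for 4 members, Mta1, Sin3b, Phf21a and Kat5, all lower in double-null ventricles, against 14.9% of all genes. In Hdac2-null against wild-type ventricles, 0 of 30 passed, against 0.0207% of all genes, and 0 were below the unadjusted threshold, against 5.11%. Gatad2a and Kdm1a were higher and Rcor3 lower without overlap, 3 members against 9.58% of all genes. In Hopx-null against wild-type ventricles, 0 of 30 passed, against 0.0103%. Phf21a and Suds3, 2 members, were below the unadjusted threshold, against 2.65% of all genes, and Sin3a, 1 member, was lower without overlap, against 4.43%.

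In double-null against Hopx-null ventricles, which differ by Hdac2, 0 of 30 passed, against 0.0207% of all genes, and 1 member, Sin3b, was below the unadjusted threshold, against 8.13%. The arrays did not overlap for 6 members, 5 higher (Gatad2b, Suds3, Arid4b, Rcor1 and Kat6a) and Sin3b lower, against 14.3% of all genes. Double-null against Hdac2-null ventricles differ by Hopx, and here 0 of 30 passed, against 0.0103%. Below the unadjusted threshold were 5 members, Rbbp7 higher and Kdm1a, Sin3b, Sap30 and Phf21a lower, against 11.3% of all genes. The arrays did not overlap for 9 members, Rbbp7 higher and Mta1, Gatad2a, Sin3b, Sap30, Kdm1a, Phf21a, Kat5 and Kat8 lower, against 25.6% of all genes. Across the 6 embryos without Hdac2 and the 6 with it, 0 of 30 passed, against 0.0207%, 0 were below the unadjusted threshold, against 8.96%, and 0 did not overlap, against 0.61%. For the interaction, the difference between the Hopx effect without Hdac2 and with it, 0 of 30 passed, against 0% of all genes, and Sin3b and Kdm1a, 2 members, were below the unadjusted threshold, against 4.18%.

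The intervals show what changes these arrays leave room for. Across the members the median log2 fold change was 0.0053 in double-null, 0.0363 in Hdac2-null and -0.0059 in Hopx-null against wild-type ventricles, and over all genes it was -0.0139, -0.0143 and -0.0025. The 95% interval lay within a 1.5-fold change in either direction for 28, 29 and 28 of the 30 members in those 3 comparisons, against 81.2%, 82.3% and 84.6% of all genes. With Hdac2 absent against present it did so for 29 of 30, against 91.4% of all genes, and for the interaction for 25 of 30, against 64.8%. The median standard error of the fold changes against wild type was 0.0837 for the members and 0.111 for all genes, and the median residual SD 0.102 and 0.135. The members were thus measured with less spread than the typical gene, and 22 of 30 had a residual SD below the median of all genes. The 3 comparisons with wild type share the same wild-type arrays.

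**Figure D2:**
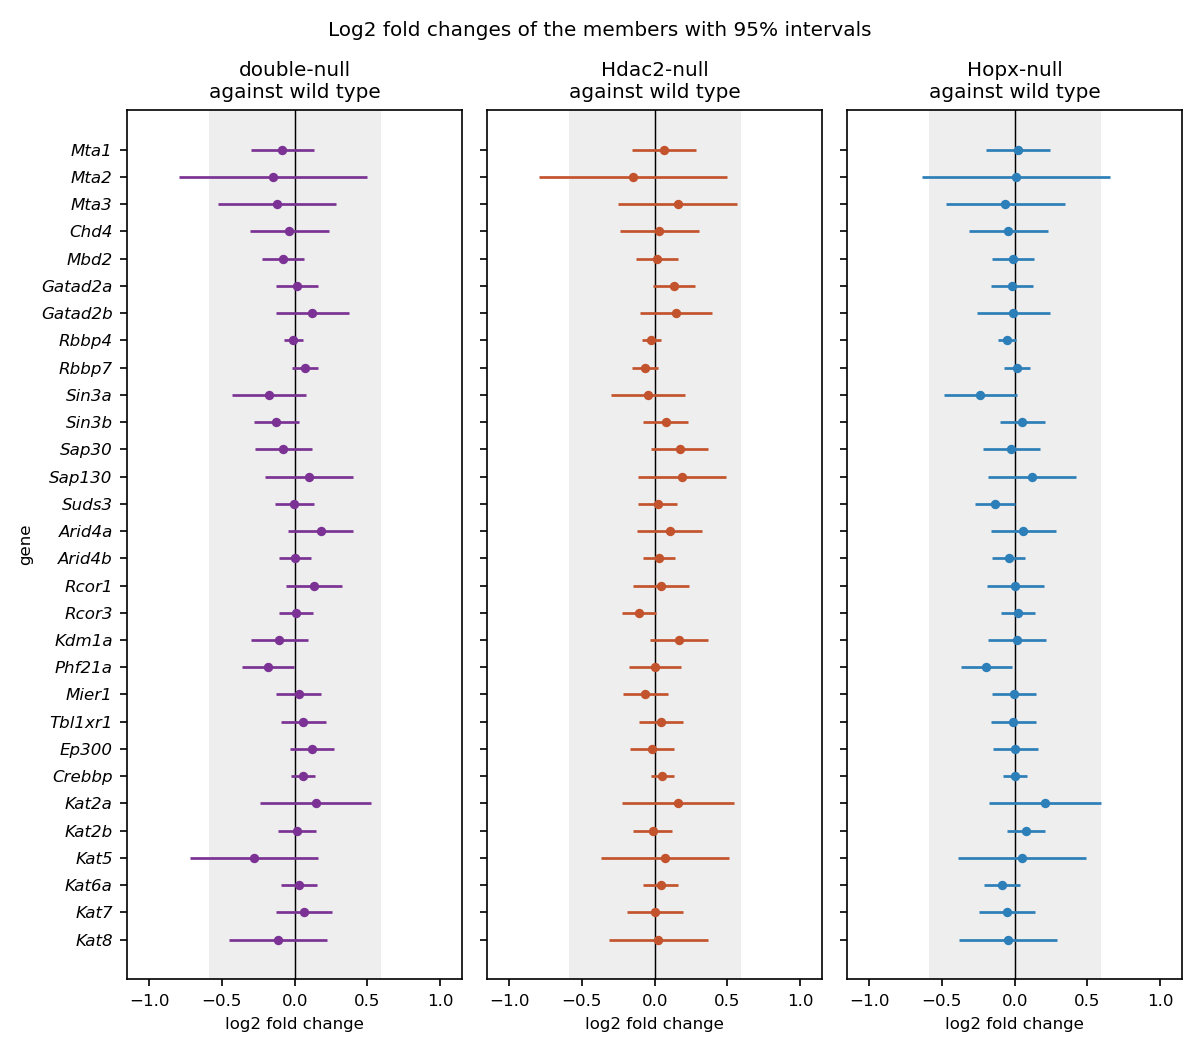
Log2 fold changes (points) with 95% intervals (lines) of the 30 tested members in double-null, Hdac2-null and Hopx-null ventricles, each against wild type, from limma. The grey band spans a 1.5-fold change in either direction, and all but 2, 1 and 2 of the intervals lie inside it. Mta2 and Kat5 have the widest intervals.

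NuRD was read through 7 of its 9 listed subunits beside Rbbp4 and Rbbp7. Chd4 is the remodelling ATPase, the Mta proteins are scaffolds that bind the deacetylase, Mbd2 reads methylated CpG, and Gatad2a and Gatad2b bridge the remodeller and the deacetylase modules. In double-null against wild-type ventricles 2 of the 7 fold changes were above 0 and 5 below, in Hdac2-null against wild-type 6 above and 1 below, and in Hopx-null against wild-type 2 above and 5 below. None passed. The remodeller Chd3 had signals of 32.3 to 55.9 and Mbd3, the relative that Mbd2 replaces in some NuRD assemblies, 16.9 to 32.5 over all 12 arrays, so neither was tested.

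Gatad2a had signals of 12040, 11780 and 10780 in double-null ventricles, 12180, 12510 and 12730 in Hdac2-null ventricles, 10560, 11720 and 11540 in Hopx-null ventricles and 10330, 12080 and 11870 in wild-type ventricles. All 3 Hdac2-null arrays were above all 3 wild-type arrays. Its log2 fold change in Hdac2-null against wild-type ventricles was 0.13 (SE 0.0657, adjusted p = 0.925), the smallest p among members with higher values there. Without wild type 1 and Hopx-null 1, the log2 fold change was 0.06. Its paralog Gatad2b showed 5601, 5692 and 5685 in double-null and 6030, 5805 and 5470 in Hdac2-null ventricles, against 4509, 5496 and 5574 in Hopx-null and 4272, 5668 and 5815 in wild-type ventricles. The lowest values in the Hopx-null and the wild-type groups were the arrays that stand apart, and with Hdac2 absent against present its log2 fold change of 0.14 was 0.02 without them.

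Mta2 depended on the same arrays. Its signals were 139.9, 140.3 and 137.2 in double-null, 133.3, 135.3 and 148.2 in Hdac2-null, 257.1, 106.1 and 137.3 in Hopx-null and 223.4, 120.0 and 136.4 in wild-type ventricles. The double-null arrays lay within a narrow range, while the Hopx-null and wild-type groups each held 1 array far above the rest. Its log2 fold change in double-null against wild-type ventricles was -0.15 (SE 0.293, adjusted p = 0.916), and 0.12 without both arrays. In Hdac2-null against wild-type ventricles it was -0.15 (SE 0.293, adjusted p = 0.968), and 0.12 without them. Chd4 ran from 1259 to 1285 in double-null, from 1281 to 1436 in Hdac2-null, from 1177 to 1328 in Hopx-null and from 1054 to 1540 in wild-type ventricles, and its log2 fold change in double-null against wild-type ventricles was -0.04, or -0.19 without both arrays (adjusted p = 0.653).

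The other NuRD members had small fold changes that did not pass. Mta1 had 1272, 1239 and 1317 in double-null, 1347, 1549 and 1354 in Hdac2-null, 1583, 1327 and 1231 in Hopx-null and 1324, 1349 and 1384 in wild-type ventricles. Every double-null array was below every wild-type and every Hdac2-null array, by log2 fold changes of -0.08 (SE 0.0990, adjusted p = 0.842) and -0.15 (SE 0.0990, adjusted p = 0.597). Mta3 was between 207.4 and 293.2 in double-null, 250.4 and 371.8 in Hdac2-null, 210.6 and 297.3 in Hopx-null and 270.0 and 283.3 in wild-type ventricles, with overlap in every comparison. Mbd2 was between 6311 and 6969 in double-null, 6896 and 7358 in Hdac2-null, 6323 and 7478 in Hopx-null and 6807 and 7243 in wild-type ventricles.

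Rbbp4 and Rbbp7 are WD-repeat histone chaperones that NuRD and Sin3 share, and the fold changes of their main probe sets stayed small. Rbbp7, an X-linked gene, had 17640, 18640 and 18390 in double-null, 16700, 16150 and 16760 in Hdac2-null, 18000, 16650 and 17950 in Hopx-null and 17510, 16650 and 17880 in wild-type ventricles. Each double-null array exceeded each Hdac2-null array. The log2 difference in double-null against Hdac2-null ventricles was 0.14 (SE 0.0404, 95% interval 0.05 to 0.23, adjusted p = 0.368), with the smallest unadjusted p among members in any of the comparisons. In double-null against wild-type ventricles it was 0.07 (SE 0.0404, adjusted p = 0.694), and in Hdac2-null against wild-type -0.07 (SE 0.0404, adjusted p = 0.925). The interaction was 0.12 (SE 0.0572, adjusted p = 0.942). Rbbp7 was 16650 to 18000 on the 5 arrays with Xist above the floor and 16150 to 18640 on the 7 below it. A second Rbbp7 probe set, 1415775_at, gave 0.0023 in double-null against Hdac2-null ventricles (adjusted p = 1).

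Rbbp4 varied least of the 30 members, with 24390, 25010 and 25150 in double-null, 24280, 24980 and 24620 in Hdac2-null, 24610, 23460 and 24310 in Hopx-null and 25660, 24360 and 25030 in wild-type ventricles. On this main probe set its interaction was 0.07 (SE 0.0406, adjusted p = 0.942). Other Rbbp4 probe sets varied far more and are given below.

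The Sin3 complex was read through 7 of its 9 listed subunits. Sin3a and Sin3b are the scaffolds, Sap30, Sap130 and Suds3 are core partners that steady the deacetylase on the scaffold, and Arid4a and Arid4b are retinoblastoma-binding subunits. Of the 7 fold changes, 3 were above 0 and 4 below in double-null against wild-type ventricles, 6 above and 1 below in Hdac2-null against wild-type, and 3 above and 4 below in Hopx-null against wild-type. None passed. Brms1 had signals of 8.70 to 10.9 on all 12 arrays.

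Sin3b was 4471, 4638 and 4377 in double-null, 4891, 5569 and 5077 in Hdac2-null, 5662, 4859 and 4801 in Hopx-null and 4925, 5044 and 4764 in wild-type ventricles. All 3 double-null arrays were below all 9 others. This gene's log2 fold change was -0.20 in double-null against Hdac2-null ventricles (SE 0.0703, 95% interval -0.36 to -0.05, adjusted p = 0.371). Against Hopx-null ventricles it was -0.18 (SE 0.0703, adjusted p = 0.547), and -0.10 without wild type 1 and Hopx-null 1, where Hopx-null 1 was the highest of the 12 arrays. Against wild-type ventricles it was -0.13 (SE 0.0703, adjusted p = 0.691). These 3 values share the double-null arrays. With Hdac2 absent against present it was -0.05 (SE 0.0497, adjusted p = 0.783), and -0.01 without both arrays, and the interaction was -0.26 (SE 0.0995, adjusted p = 0.942). All 4 Sin3b probe sets that were fitted had lower values in double-null than in Hdac2-null ventricles, at -0.20, -0.47, -0.22 and -0.10, and none passed. In double-null against Hopx-null ventricles the probe set 1452849_at gave 0.06, the opposite sign.

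Sap30 was 1960, 1970 and 1678 in double-null, 2011, 2266 and 2389 in Hdac2-null, 2014, 1940 and 1854 in Hopx-null and 2012, 1852 and 2043 in wild-type ventricles. The Hdac2-null arrays were above the double-null arrays without overlap, and the double-null range overlapped with those of the Hopx-null and wild-type groups. Its log2 fold change in double-null against Hdac2-null ventricles was -0.25 (SE 0.0888, 95% interval -0.44 to -0.05, adjusted p = 0.378), and in Hdac2-null against wild-type 0.17 (SE 0.0888, adjusted p = 0.925). The interaction was -0.23 (SE 0.126, adjusted p = 0.942).

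Sin3a was lower in Hopx-null than in wild-type ventricles without overlap, at 322.1, 310.7 and 291.0 against 416.8, 331.4 and 343.8, and was 335.5, 340.0 and 288.8 in double-null and 331.8, 359.1 and 362.8 in Hdac2-null ventricles. The wild-type high value was on wild type 1. The log2 difference in Hopx-null against wild-type ventricles was -0.24 (SE 0.114, adjusted p = 1), and a second probe set, 1419101_at, gave 0.08. In double-null against wild-type ventricles it was -0.18 (SE 0.114, adjusted p = 0.741), and -0.07 without wild type 1 and Hopx-null 1. Suds3 was 2715, 2751 and 2723 in double-null, 2718, 2815 and 2790 in Hdac2-null, 2440, 2451 and 2586 in Hopx-null and 2959, 2568 and 2693 in wild-type ventricles, so the Hopx-null group had the low values. Its log2 fold change was 0.13 in double-null against Hopx-null ventricles (SE 0.0610, adjusted p = 0.614) and -0.13 in Hopx-null against wild-type (SE 0.0610, adjusted p = 1). Wild type 1 was the highest and Hopx-null 1 the lowest of the 12 arrays, and without both the second value was -0.06. With Hdac2 absent against present it was 0.08 (SE 0.0431, adjusted p = 0.638). A second Suds3 probe set, 1427896_at, had 1897, 1964 and 1592 in double-null and 1612, 1972 and 1851 in Hopx-null ventricles, which overlap.

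Arid4a was 2203, 2568 and 2482 in double-null, against 2434, 1887 and 2113 in wild-type ventricles, overlapping, with a log2 fold change of 0.18 (SE 0.102, adjusted p = 0.698), and 0.27 (adjusted p = 0.653) without wild type 1 and Hopx-null 1. Sap130 was 1213, 1512 and 1306 in Hopx-null, against 1061, 1155 and 1530 in wild-type ventricles, also overlapping, with 0.12 (SE 0.138, adjusted p = 1). Arid4b stayed between 4095 and 4588 over all 12 arrays.

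CoREST and Mier1 showed the same picture in 5 of 6 listed members. Rcor1 and Rcor3 are the CoREST scaffolds, Kdm1a removes methyl groups from histone H3 lysine 4, Phf21a reads the unmethylated form of that lysine, and Mier1 is a separate scaffold that binds Hdac1 and Hdac2. The small HMG-box subunit Hmg20b had signals of 17.2 to 30.3 on all arrays. In double-null against wild-type ventricles 3 of the 5 fold changes were above 0 and 2 below, with the same split in Hdac2-null against wild-type and in Hopx-null against wild-type.

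Kdm1a was 3756, 3622 and 3131 in double-null, 3988, 4643 and 4066 in Hdac2-null, 4127, 3779 and 3504 in Hopx-null and 3853, 3530 and 3895 in wild-type ventricles. The Hdac2-null arrays were all above the wild-type arrays and all above the double-null arrays. This gene's log2 fold change was -0.27 in double-null against Hdac2-null ventricles (SE 0.0898, 95% interval -0.47 to -0.08, adjusted p = 0.368), and a second probe set, 1426761_at, gave -0.40 (adjusted p = 0.342). In Hdac2-null against wild-type ventricles it was 0.17 (SE 0.0898, adjusted p = 0.925), and in double-null against Hopx-null -0.12 (SE 0.0898, adjusted p = 0.738), which was -0.06 without wild type 1 and Hopx-null 1. The interaction was -0.29 (SE 0.127, adjusted p = 0.942).

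Phf21a was 4367, 4284 and 4370 in double-null, 4974, 5378 and 4515 in Hdac2-null, 4216, 4818 and 3949 in Hopx-null and 5204, 4861 and 4752 in wild-type ventricles. The groups without Hopx had the low values, with 1 Hopx-null array inside the wild-type range. The log2 difference was -0.19 in double-null against wild-type ventricles (SE 0.0805, 95% interval -0.36 to -0.01, adjusted p = 0.671). It was -0.19 in Hopx-null against wild-type (SE 0.0805, adjusted p = 1) and -0.19 in double-null against Hdac2-null (SE 0.0805, adjusted p = 0.418). Without wild type 1 and Hopx-null 1 these values were -0.15, -0.14 and -0.19. The probe set 1441145_at had 483.1, 565.1 and 490.7 in double-null, 792.3, 670.1 and 678.8 in Hdac2-null, 587.6, 574.3 and 558.2 in Hopx-null and 805.7, 659.1 and 618.0 in wild-type ventricles, so on it both groups without Hopx lay below both groups with Hopx. It gave -0.43 in double-null against wild-type ventricles (adjusted p = 0.556) and -0.48 in double-null against Hdac2-null (adjusted p = 0.323).

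**Figure D3:**
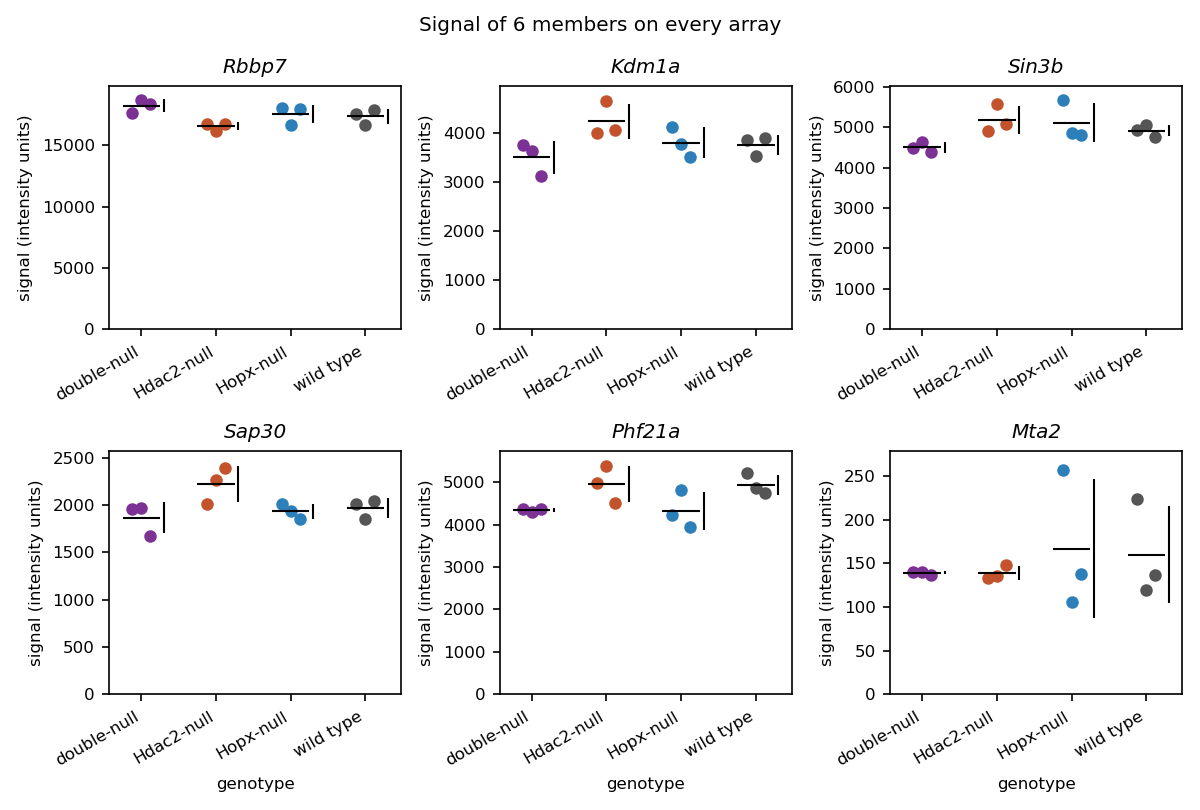
Signal in intensity units of Rbbp7, Kdm1a, Sin3b, Sap30, Phf21a and Mta2 on every array (points), with the genotype mean (horizontal line) and SD (vertical line, n = 3). The 3 double-null arrays of Sin3b lie below all others, and Mta2 has 1 high array in the Hopx-null group and 1 in the wild-type group.

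Rcor3 was 5313, 5792 and 5770 in double-null, 4971, 5172 and 5458 in Hdac2-null, 5466, 5604 and 5969 in Hopx-null and 5552, 5529 and 5700 in wild-type ventricles, so the Hdac2-null arrays were below the wild-type arrays. The fold change (log2) was -0.11 in Hdac2-null against wild-type ventricles (SE 0.0537, adjusted p = 0.925), 0.11 in double-null against Hdac2-null (SE 0.0537, adjusted p = 0.46) and -0.06 with Hdac2 absent against present (SE 0.0379, adjusted p = 0.67). Its other probe sets disagreed. The probe set 1444364_at had 98.98, 88.2 and 82.6 in double-null, 188, 106.2 and 130.5 in Hdac2-null, 62.96, 90.3 and 99.7 in Hopx-null and 42.8, 70.9 and 84.5 in wild-type ventricles, which gave 0.73 in Hdac2-null against wild-type (adjusted p = 0.865). The probe set 1428343_at gave 0.86 there (adjusted p = 0.865), and 1432232_at gave -0.04. A direction for Rcor3 was therefore not settled.

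Mier1 was 2419, 2332 and 2159 in Hdac2-null, against 2478, 2425 and 2314 in wild-type ventricles, with a log2 fold change of -0.06 (SE 0.0696, adjusted p = 0.931), or -0.04 without wild type 1 and Hopx-null 1, and its second probe set gave 0.28. Rcor1 was between 2035 and 2110 in double-null, 1754 and 2218 in Hdac2-null, 1860 and 2005 in Hopx-null and 1808 and 2039 in wild-type ventricles. Of NCoR only Tbl1xr1, a WD-repeat subunit that exchanges corepressors for coactivators, was tested. It was 3802 to 3910 in double-null, 3587 to 4071 in Hdac2-null, 3438 to 3909 in Hopx-null and 3529 to 4004 in wild-type ventricles, with log2 fold changes against wild type of 0.06, 0.04 and -0.01 (adjusted p = 0.841, 0.958 and 1), and 0.02, 0.0071 and -0.05 without wild type 1 and Hopx-null 1.

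All 8 acetyltransferases were tested. Against wild type, 6 fold changes were above 0 and 2 below in double-null ventricles, 5 above and 3 below in Hdac2-null, and 5 above and 3 below in Hopx-null, and none passed. Ep300, a general coactivator, was 4774, 5068 and 5216 in double-null, 4982, 4164 and 4592 in Hdac2-null, 4642, 4399 and 4883 in Hopx-null and 4597, 4489 and 4778 in wild-type ventricles. The double-null values were high but overlapped with every other genotype by at least 1 array. Its log2 fold change was 0.12 in double-null against wild-type ventricles (SE 0.0693, adjusted p = 0.702), 0.11 against Hopx-null (SE 0.0693, adjusted p = 0.69) and 0.14 against Hdac2-null (SE 0.0693, adjusted p = 0.488). The interaction was 0.13 (SE 0.0979, adjusted p = 0.942).

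Crebbp, the paralog of Ep300, was 11820, 12260 and 12230 in double-null and 11880, 11810 and 12510 in Hdac2-null, against 11400, 11480 and 12100 in Hopx-null and 11500, 11870 and 11530 in wild-type ventricles. With Hdac2 absent against present the log2 fold change was 0.05 (SE 0.0259, 95% interval -0.0037 to 0.11, adjusted p = 0.586), the smallest p among members in that comparison. The arrays overlapped, and the probe set 1436983_at gave -0.05. Kat6a, the MYST enzyme also called MOZ, was 4087, 4120 and 4150 in double-null and 4159, 3948 and 4366 in Hdac2-null, against 3616, 3775 and 4015 in Hopx-null and 3982, 3933 and 4210 in wild-type ventricles. It gave 0.08 with Hdac2 absent against present (SE 0.0396, adjusted p = 0.598) and 0.12 in double-null against Hopx-null (SE 0.0560, adjusted p = 0.616).

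Kat5, the catalytic subunit of Tip60 complexes, had the lowest fold change of the members in 4 of the comparisons and a wide spread. It was 500.7, 420.9 and 378.8 in double-null, 507.8, 621.6 and 523.6 in Hdac2-null, 685.4, 615.9 and 376.5 in Hopx-null and 539.1, 518.1 and 511.4 in wild-type ventricles. All double-null arrays were below all wild-type and Hdac2-null arrays, but the Hopx-null arrays spanned the whole range. The fold change (log2) was -0.28 in double-null against wild-type ventricles (SE 0.2, 95% interval -0.72 to 0.16, adjusted p = 0.756), -0.35 against Hdac2-null (SE 0.2, adjusted p = 0.538) and -0.33 against Hopx-null (SE 0.2, adjusted p = 0.687). The last value was -0.16 without wild type 1 and Hopx-null 1, the highest array for this gene being Hopx-null 1.

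The SAGA and PCAF enzymes Kat2a and Kat2b were the members with the smallest p on the higher side in Hopx-null against wild-type ventricles. Kat2b was 6088, 5847 and 6663 in Hopx-null, against 6193, 5797 and 5584 in wild-type ventricles, with 0.08 (SE 0.0594, adjusted p = 1), and 0.13 without wild type 1 and Hopx-null 1. Kat2a was 245.5, 153.8 and 168.9 in Hopx-null, against 185.3, 142.7 and 157.1 in wild-type ventricles, with 0.21 (SE 0.174, adjusted p = 1). The highest Kat2a value of each group was its replicate 1, the arrays that stand apart, and without them the value was 0.11. With Hdac2 absent against present Kat2b gave -0.04 (SE 0.0420, adjusted p = 0.808), and -0.03 without both arrays. Kat7, the MYST enzyme of HBO1 complexes, was between 3215 and 3453 in double-null, 3075 and 3274 in Hdac2-null, 2846 and 3325 in Hopx-null and 2768 and 3463 in wild-type ventricles. Kat8, which acetylates histone H4 lysine 16, was 445.6, 380.1 and 455.4 in double-null, below 468.8, 461.0 and 477.6 in Hdac2-null ventricles without overlap, by a log2 fold change of -0.14 (SE 0.153, adjusted p = 0.765).

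The deacetylases that these subunits carry were checked beside them. Hdac1 was 3929, 3877 and 4242 in double-null and 3804, 3840 and 3774 in Hdac2-null, against 4001, 3462 and 3594 in Hopx-null and 3225, 3578 and 4069 in wild-type ventricles, and gave 0.10 with Hdac2 absent against present (SE 0.0593, adjusted p = 0.65). Hdac3 averaged 201.4 in double-null, 226.9 in Hdac2-null, 236.8 in Hopx-null and 252.5 in wild-type ventricles, with 1 high wild-type and 1 high Hopx-null array, both replicate 1, and gave -0.17 (SE 0.14, adjusted p = 0.752) with Hdac2 absent against present, but 0.02 without those 2 arrays.

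Double-null against Hdac2-null ventricles was the one comparison in which an analysis setting moved members across the threshold. With each array weighted by how closely it follows the fit (limma's array weights), 3 members passed, Rbbp7 at 0.15 (adjusted p = 0.0174), Rcor3 at 0.17 (adjusted p = 0.0282) and Phf21a at -0.20 (adjusted p = 0.0278), 10% of the members, while 951 of all genes (9.84%) passed. In that weighting array double-null 2 had a weight of 7.98 and the others 0.31 to 3.05. Without wild type 1 and Hopx-null 1, 0 members passed in any comparison, 6 were below the unadjusted threshold in double-null against Hdac2-null, as were 14.9% of all genes, and the smallest adjusted p was 0.278.

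Many members have further probe sets, and these were fitted with all 15712 probe sets that passed the filters. There were 59 probe sets for the members, 29 of them beside the main ones, for 19 members, and none passed. In double-null against Hdac2-null ventricles 16 of the 59 were below an unadjusted p of 0.05, against 11.5% of all probe sets, and several belonged to the same gene. In double-null against wild-type ventricles the count was 3 of 59, against 7.64%, and in Hdac2-null against wild-type 4, against 5.49%. In Hopx-null against wild-type it was 4, against 2.83%, and for the interaction 7, against 4.33%. In double-null against Hopx-null it was 5, against 7.9%, and with Hdac2 absent against present 4, against 9.13%. The sign of the other probe sets matched that of the main one for 17 of 29 in double-null, 20 of 29 in Hdac2-null and 15 of 29 in Hopx-null ventricles against wild type. Rbbp4 was one gene whose probe sets differed. Its main probe set is an x_at design, whose probes can match other transcripts, and held within 23460 to 25660, while 1456260_at read 924.1 on wild type 1 and 1286 on Hopx-null 1 but 2744 to 4015 on the other 10 arrays. Another, 1454791_a_at, spread from 616.2 to 3345 within and across genotypes. It read 3345, 2509 and 1255 in wild-type and 3079, 1716 and 3145 in double-null ventricles. In Hdac2-null ventricles it read 616.2, 2002 and 1242, and in Hopx-null ventricles 646.6, 870.6 and 1820. The small fold changes of Rbbp4 thus hold for its main probe set only.

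**Figure D4:**
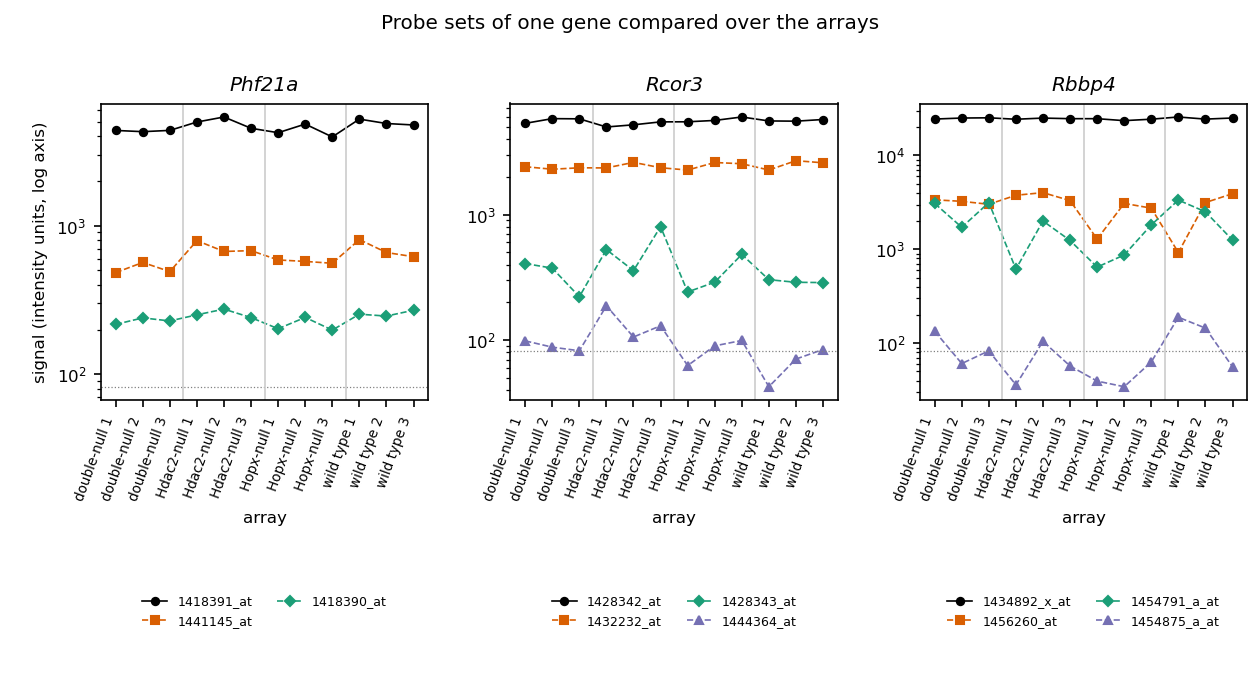
Signal (log axis) of each probe set above the floor for Phf21a, Rcor3 and Rbbp4 over the 12 arrays. Solid black lines are the main probe sets, dashed lines the others, and the dotted grey line the floor of 82.5. The 2 dimmer probe sets of Rcor3 reach their highest value on a Hdac2-null array and the main one its lowest, and Rbbp4's 1456260_at drops on wild type 1 and Hopx-null 1.

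Within genotypes, correlations between members ran from strongly negative to strongly positive. Over the 435 pairs of members, the median correlation of deviations from the genotype means was 0.003 across the 12 arrays, with a range of -0.891 to 0.904. The highest was between Mta2 and Kat2a, both high on wild type 1 and Hopx-null 1. These correlations share arrays and are a description. No value for other genes was set beside them, so whether the members move together more than other genes was not tested.

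The wider deacetylase and acetylation machinery added no call beyond Hdac2 itself. Of 25 further subunits of the deacetylase complexes that were tested, 0 passed in any comparison, and with Hdac2 absent against present 3 were higher and 1 lower at an unadjusted p under 0.05. The same count was 2 higher and 0 lower of 17 other acetyltransferases, 2 and 0 of 51 subunits of acetyltransferase complexes and 3 and 0 of 22 acetyl-lysine readers, against 8.96% of all genes. Among the 9 class I, II and IV deacetylases tested, Hdac2 alone passed. Sall4, a zinc finger protein that recruits NuRD, was 942.6, 933.4 and 736.2 in double-null and 885.6, 754.5 and 840.0 in Hdac2-null, against 414.2, 465.1 and 695.1 in Hopx-null and 498.2, 478.7 and 475.3 in wild-type ventricles. All 6 arrays without Hdac2 were above all 6 with it, and the 2 sides did not overlap for 0.61% of all genes. Its log2 fold change was 0.76 (SE 0.125, 95% interval 0.49 to 1.04, adjusted p = 0.1), and it did not pass. Sall4 had the smallest adjusted p of the 25 further subunits in this comparison, so its separation is that of a picked gene.

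Brd1, a scaffold of MYST acetyltransferase complexes, was 5023, 5338 and 5075 in double-null and 5120, 4987 and 5517 in Hdac2-null, against 4436, 4476 and 4874 in Hopx-null and 4304, 4628 and 4814 in wild-type ventricles, again without overlap. It gave 0.17 with Hdac2 absent against present (SE 0.0431, adjusted p = 0.345). Brd1 was likewise picked, with the smallest adjusted p there of the 51 subunits of acetyltransferase complexes. The lowest p-values on the other side were those of Phf12, a Sin3 partner, at -0.19 (SE 0.0714, adjusted p = 0.521), and of Eny2, a small SAGA subunit, at -0.08 (SE 0.0403, adjusted p = 0.591).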

How the data were processed

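The values were 1 linear intensity per probe set and array, as the authors deposited them. The submitters' processing notes name MAS5 without a role, and the sources used here do not give how the arrays were brought to one scale. Their upper quartiles lay between 557.3 and 586. The values piled up near the low end, 48.6% of them near 4.5, with a lowest signal of 3.6. This is a shape unlike that usual for MAS5, so the floor below is a working limit and not a measured background. Of 45101 probe sets, 64 were controls, 34945 named 1 gene, 932 several and 9160 none. Each gene was represented by the probe set brightest on average over the arrays (mean log2 signal). Values under a floor of 82.5, 0.1 times the mean of the arrays' means after trimming 2% at each end, were raised to it. Genes at the floor on all arrays, and those below the 40th percentile of mean signal, were left out, which left 9667.

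Log2 intensities of all 4 genotypes entered 1 fit in limma 3.58.1 (R 4.3.3, empirical Bayes with an intensity trend), with 7 contrasts and Benjamini-Hochberg adjustment at 0.05. The fit was checked on simulated data. Intervals are 95% intervals from the moderated standard error, and the number of arrays limits precision. The labels name the replicates as biological, from independent embryos. Every pair of same-numbered arrays correlated above 0.1 in its deviations from the group means only between Hopx-null and wild type (r = 0.423, 0.419 and 0.154) and between Hopx-null and Hdac2-null (0.206, 0.17 and 0.122).

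All 36 members were named. Full statistics were given to the 3 members with the smallest p in each direction of each comparison. Their other probe sets were fitted where they passed the filters, and those with the opposite sign are given. Not every other probe set with the same sign is printed. The members and lists were chosen with earlier results of these data known. No column of the table was left unmapped. Settings varied were the floor, the filter, the choice of probe set, scaling, the variance model, an Xist covariate, the replicate block and leaving out arrays. Sequences and their chromosomes came from RefSeq on GRCm38.p6.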

Additional observations from a re-analysis of the deposited data

How the results depend on the processing

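With 1 exception, no member passed under any setting tried. The exception was array weights, with 3 members and 951 genes in double-null against Hdac2-null ventricles and 5 genes with Hdac2 absent against present. Leaving out each array in turn called no member and turned no sign among the 42 member values with full statistics, while genes called ranged from 2 to 27 with Hdac2 absent against present, from 2 to 4 in Hdac2-null against wild type, from 2 to 8 in double-null against wild type, from 1 to 3 in double-null against Hopx-null and from 0 to 1 for the interaction, with each upper count reached without wild type 3. Without both wild type 1 and Hopx-null 1, chosen after seeing the data, double-null against Hopx-null had 5 genes. The count there was 1 with the floor as a pseudocount, the mean over probe sets, no floor, or the replicate block, which changed no other call. Without a floor, double-null against Hdac2-null had 2 genes. Hdac2-null against wild type had 1 without a floor or with the mean over probe sets.

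Among those 42 values, signs reversed only with another choice of probe set. The mean over probe sets gave Mier1 0.072 and Rcor3 0.24 in Hdac2-null against wild type. It gave for Rcor3 0.11 with Hdac2 absent against present and -0.21 in double-null against Hdac2-null. Single other probe sets gave, for Rcor3, 0.43 and 0.36 with Hdac2 absent against present, 0.86 and 0.73 in Hdac2-null against wild type, and -0.72, -0.62 and -0.050 in double-null against Hdac2-null. They gave Mier1 0.28 in Hdac2-null against wild type, Rbbp7 -0.066 in double-null against wild type and -0.005 for the interaction, Rbbp4 -0.18 for the interaction, Crebbp -0.055 and Sin3b 0.078 with Hdac2 absent against present, Sin3b 0.056 in double-null against Hopx-null, and Sin3a 0.083 and Suds3 0.011 in Hopx-null against wild type. The cause was not tested. Members at or below the floor have no measured fold change here.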
